A study of Mus musculus with 6 samples.

Results

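Genes at which KLF3 occupied a cluster of sites were examined in murine embryonic fibroblasts (MEFs). They were chosen by KLF3 occupancy itself: a gene was taken when 5 or more peaks of the merged KLF3 list carried its name, that is, had its transcription start site (TSS) as the nearest one, at a distance of at most 100 kb. This gave 156 genes with 904 peaks, out of 7937 genes that had at least 1 of the 11921 peaks within 100 kb, and out of 14115 merged KLF3 peaks in all. Because the members were selected on KLF3 peak calls, their number and their KLF3 heights are given as a description and carry no test. The same holds for any difference that contains the KLF3 height.

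All cells were Klf3-/- MEFs of the C57BL/6 strain, and all groups therefore lacked endogenous KLF3. They had been transduced with an MSCV retrovirus that encoded Klf3-V5, ΔDL-V5 or DBD-V5, grown in DMEM with FCS, and isolated as stable clones under puromycin, so that each construct was represented by a clonal line. ΔDL carries a substitution in the motif that contacts the corepressor CtBP, and DBD keeps the zinc finger domain but lacks the N-terminal domain. Chromatin immunoprecipitation with an anti-V5 antibody and sequencing was performed on 2 biological replicates of each of the 3 constructs, with input chromatin as control.

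KLF3 is a member of the Krüppel-like family, whose C-terminal zinc fingers read CACCC boxes and related GC-rich sequences, and it acts mainly as a repressor that recruits CtBP through its N-terminal domain. In fibroblasts such factors occupy promoters as well as distal regulatory elements, and a gene with several elements can hold several occupied sites. A peak is assigned to a gene here by its nearest TSS alone, and such an assignment does not show that the gene is regulated from that site.

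The sequences under the clusters are shown first for the highest KLF3 peak of 3 genes with 10 or more peaks as examples of the kind of site that builds a cluster. Each is 121 bases of the mm9 genome around the peak centre, on the plus strand. Capitals mark CACCC-like words (the word ACACCC, the word ACGCCC, the word CCACCC or the word CCGCCC, on either strand) and AP-1 words (the word TGACTCA or its reverse complement). For Sgms1 the highest peak was passed over because it touched an untranslated exon, and the next one was taken.
4933433H22Rik, chr17:84389848-84389968: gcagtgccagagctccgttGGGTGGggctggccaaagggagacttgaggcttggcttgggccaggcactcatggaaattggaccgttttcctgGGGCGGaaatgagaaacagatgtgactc
Sgms1, chr19:32379457-32379577: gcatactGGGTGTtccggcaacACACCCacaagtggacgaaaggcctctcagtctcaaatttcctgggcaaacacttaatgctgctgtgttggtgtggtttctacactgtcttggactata
Septin9, chr11:117096682-117096802: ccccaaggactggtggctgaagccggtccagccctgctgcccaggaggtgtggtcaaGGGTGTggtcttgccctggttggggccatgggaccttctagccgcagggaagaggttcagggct
These windows held 2, 2 and 1 CACCC-like words, respectively, and no AP-1 word. The site from 4933433H22Rik lies in intergenic sequence, and the other 2 lie in introns.

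A further sequence is that of the peak with the largest loss among the genes lowest in ΔDL, in intron 1 of Rasa2.
Rasa2, chr9:96531414-96531534: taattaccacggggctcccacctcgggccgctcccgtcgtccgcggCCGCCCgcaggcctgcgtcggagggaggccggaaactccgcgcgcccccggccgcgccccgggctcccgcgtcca
The Rasa2 site held 1 CACCC-like word and no AP-1 word.

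The depth of the data limits what can be said of a single peak. The replicate lists rested on 1.77 to 18.1 M counted tags (M, mega), as derived from the score of 1 tag in each list. The fewest were those of ΔDL replicate 1. These are not the numbers of sequenced reads, since the paper reports more mapped reads for every immunoprecipitation library. The heights used below are the tags in 400 bp around a peak, counted by the authors in both replicates together and normalized to 100 M tags, so that a height has no replicate error and no test was possible at a peak. Behind the KLF3 heights stood 23.3 M counted tags, behind the ΔDL heights 11.8 M and behind the DBD heights 16 M. Hence 1 counted tag was worth 4.29, 8.45 and 6.23 normalized tags, respectively. The median heights at cluster peaks corresponded to about 68.8 counted tags in the KLF3 line, 27.7 in the ΔDL line and 7.84 in the DBD line. Uniform coverage of the genome would give 14.7 normalized tags per peak.

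Clusters consisted mostly of sites outside promoters. Of the 904 cluster peaks, 404 were intronic (44.7%, 95% Wilson interval 41.5 to 47.9), 362 were intergenic (40%, 36.9 to 43.3), 114 lay in promoters (12.6%, 10.6 to 14.9) and 24 lay in exons, non-coding RNA exons or near a transcription end. Among the 11017 other peaks within 100 kb the promoter share was 37.7%, the intronic share 30.1% and the intergenic share 27.7%. The intervals cover counting error over peaks only. A gene has few promoters and needs 5 peaks to be chosen, so the rule itself limits the promoter share. At the edge of the rule, the 189 genes with 4 peaks had 16.1% of their peaks in promoters and the 89 genes with 5 peaks had 13.7%.

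Most of the genes nevertheless held a promoter peak. A peak in a promoter was present at 94 of 156 genes (60.3%), always together with peaks elsewhere, against 56.6% of the genes with 4 peaks and 49.4% of the genes with 1 peak. A gene with more peaks has more chances to hold one in a promoter and others elsewhere. The rule itself thus favours this order of shares. At 53 genes the cluster combined promoter, intronic and intergenic peaks, and at 33 genes it combined intronic and intergenic peaks without a promoter peak. Purely intronic clusters, with introns of any gene counted, were found at 10 genes. Among them were Fstl1, a secreted glycoprotein, Timp3, an inhibitor of matrix metalloproteinases, and Hspg2, the heparan sulphate proteoglycan perlecan. Purely intergenic clusters were found at 18 genes, among them Thbs2, Ptgs2, Irf2bp2 and Cdk6. Sertad2 was the only gene of the 156 with most of its peaks in promoters, 3 of 5.

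A cluster spanned a median of 80 kb (quartiles 53.5 and 112 kb). The shortest were those of Chd9, 8.36 kb, and Agfg1, 8.81 kb, and the longest those of Lpp, 438 kb, and Foxp1, 511 kb, both large genes. Neighbouring peaks lay a median of 10.7 kb apart (quartiles 2.76 and 25.9 kb). Close pairs were present as well: 103 of 748 gaps were under 1 kb (13.8%), 18 of them between overlapping intervals, and 74 genes held at least 1 such pair. These pairs may share fragments, so the peaks of a gene are not independent measurements.

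Cluster peaks lay a median of 22.4 kb from the TSS, and 303 of them (33.5%) lay within 10 kb, against 62% of the other peaks within 100 kb. Of the 381 intronic peaks for which both the host gene and the nearest-TSS gene could be resolved, 339 lay in the gene they were named for and 42 in another gene. The first intron held 45.3% of the intronic cluster peaks, and 43.3% of all intronic KLF3 peaks.

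The room around a gene moved with its number of peaks. Each protein-coding gene was given the stretch of the GENCODE annotation of mm9 for which its start sites are the nearest, to at most 100 kb. The median stretch was 162 kb for 138 matched genes with clusters, 84.4 kb for genes with 2 to 4 peaks and 54.6 kb for genes with 1 peak. Peak density was also higher, at a median of 3.54 peaks per 100 kb against 2.87 and 1.83, although the number of peaks is what chose the genes. How much of the clustering is due to this room was not tested.

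**Figure D1:**
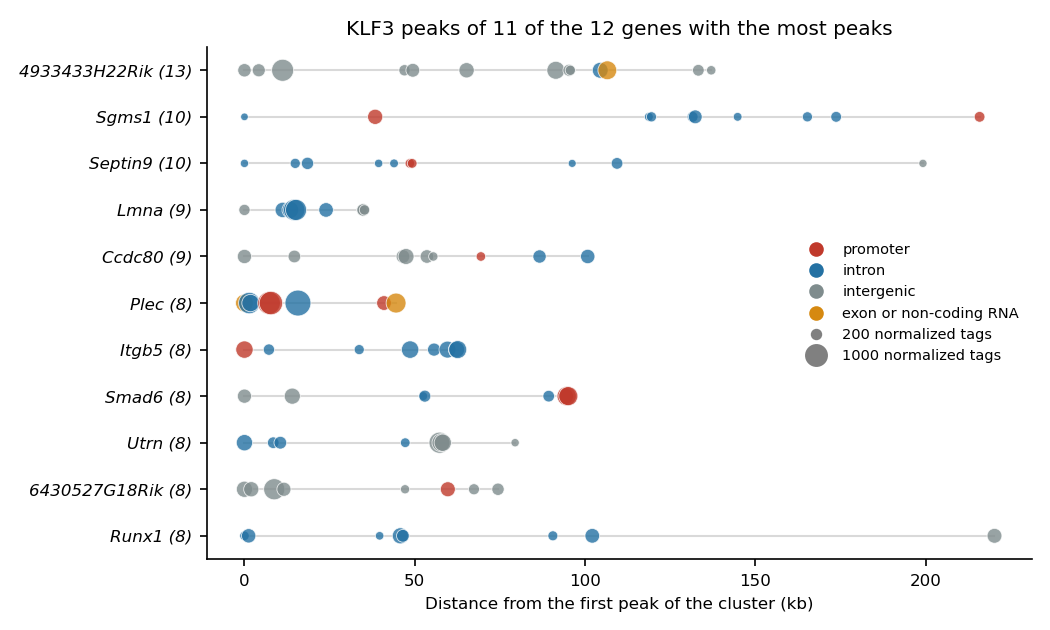
KLF3 peaks of 11 of the 12 genes with the most peaks, placed by distance in kb from the first peak of each cluster; colour gives the annotated region and the area of a point is proportional to the KLF3 height in normalized tags. The cluster of Lmna spans 35.7 kb, and those of Sgms1, Septin9 and Runx1 span 216, 200 and 221 kb.

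The gene with the most peaks was 4933433H22Rik, a non-coding RNA gene on chromosome 17, with 13 peaks over 137 kb (chr17:84378498-84515960), of which 11 were intergenic. Its KLF3 heights ran from 202 to 1110 normalized tags. ΔDL heights there ran from 91.8 to 584 and were below KLF3 at 11 of 13 peaks, and DBD heights ran from 11.8 to 114. In all, 16 of the 156 genes were non-coding, and 140 were protein-coding.

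Plec, which encodes the cytolinker plectin, had 8 peaks over 44.9 kb and the highest median KLF3 height of the 12 largest clusters, 979 normalized tags. The 3 promoter peaks of Plec, a pair at 1 start site and 1 at another, had KLF3 heights of 1180, 1260 and 495 normalized tags. An intronic peak 2029 bp downstream of a start site reached 1540 in the KLF3 line and 1630 in the ΔDL line, but 81 in the DBD line. Lmna, which encodes the nuclear lamins A and C, had 9 peaks over 35.7 kb (chr3:88281616-88317268), none of them in a promoter. Its highest KLF3 peaks, 1040 and 1020 normalized tags, lay in intron 1 of a transcript, 788 and 255 bp from the TSS. Itgb5, the integrin β5 subunit, held 7 intronic peaks and 1 promoter peak. Utrn, which encodes utrophin, had 4 intronic and 4 intergenic peaks.

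Of the remaining large clusters, Sgms1, a sphingomyelin synthase, and Septin9, a cytoskeletal GTPase, had 10 peaks each and comparatively low KLF3 heights, with medians of 250 and 191 normalized tags. Ccdc80, a secreted protein of the extracellular matrix, had 9 peaks with a median of 422. Runx1, the DNA-binding subunit of core binding factor, had 7 intronic peaks and 1 intergenic peak over 221 kb. The 6430527G18Rik cluster had 8 peaks, 7 of them intergenic.

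KLF3 heights, which the calls that chose the members rest on, are given for description. The median was 295 normalized tags over cluster peaks, 258 over other peaks within 100 kb and 288 at genes with 4 peaks. Intergenic cluster peaks had a median of 293, against 214 for other intergenic peaks within 100 kb and 271 for those of genes with 4 peaks. Within a gene the highest and lowest KLF3 peak differed by 1.67 log2 units in the median gene.

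ΔDL occupancy at cluster peaks was moderately below that of KLF3. The median ΔDL minus KLF3 difference was -0.41 on the log2 scale (quartiles -0.92 and 0.07), against -0.46 over the other peaks within 100 kb. Genes with 4 peaks had a median of -0.49. A ΔDL height at least 2-fold lower was found at 200 of 904 peaks (22.1%), next to 23.3% of all merged KLF3 peaks. Of the others within 100 kb, 26.4% were lower. These pooled values mix regions, and promoters made up 12.6% of cluster peaks but 37.7% of the others within 100 kb. The pooled shares are therefore no comparison of like regions, and values by region follow below. A height at least 2-fold higher was found at 35 peaks (3.87%), next to 11% of all merged KLF3 peaks and 7.36% of the others within 100 kb. If heights were scaled so that the sites listed for all 3 constructs had the same median, ΔDL differences moved by -1.06 and 671 cluster peaks (74.2%) were at least 2-fold lower, next to 66.4% of all merged KLF3 peaks. None was then 2-fold higher, next to 0.0213% of all. Directions given below for single genes are those of the heights as deposited. With scaled heights every ΔDL difference changes by -1.06, which leaves 2 gene medians above 0, among them that of Klf3.

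Promoter peaks of the clusters lost more than intronic and intergenic peaks. The median ΔDL minus KLF3 difference was -0.83 at promoter peaks, -0.36 at intronic peaks and -0.35 at intergenic peaks. The corresponding values for other peaks within 100 kb were -0.71, -0.31 and -0.17. Genes with 4 peaks gave -0.98, -0.36 and -0.40, so these differences were not particular to genes with 5 or more peaks. At least 2-fold lower heights were found at 49 of 114 promoter peaks (43%), 81 of 404 intronic peaks (20%) and 66 of 362 intergenic peaks (18.2%), where all merged KLF3 peaks of those regions gave 35, 20.1 and 15.2%. Gains of at least 2-fold were found at 3.59% of intergenic cluster peaks and 12.7% of other intergenic peaks within 100 kb.

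KLF3 height moved with these values. Intronic and intergenic peaks within 100 kb were therefore divided into 4 bins of KLF3 height by its quartiles. In the lowest bin the median ΔDL difference was 0.23 for 80 cluster peaks and 0.81 for 1732 others, and gains of at least 2-fold were found at 16.2 and 33.4%. In the second bin it was -0.34 for cluster peaks and -0.32 for others, in the third -0.36 and -0.49, and in the highest -0.41 for 285 cluster peaks and -0.53 for 1483 others. Cluster peaks thus had the lower median in the lowest bin, nearly the same one in the next, and the smaller loss in the upper 2 bins.

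**Figure D2:**
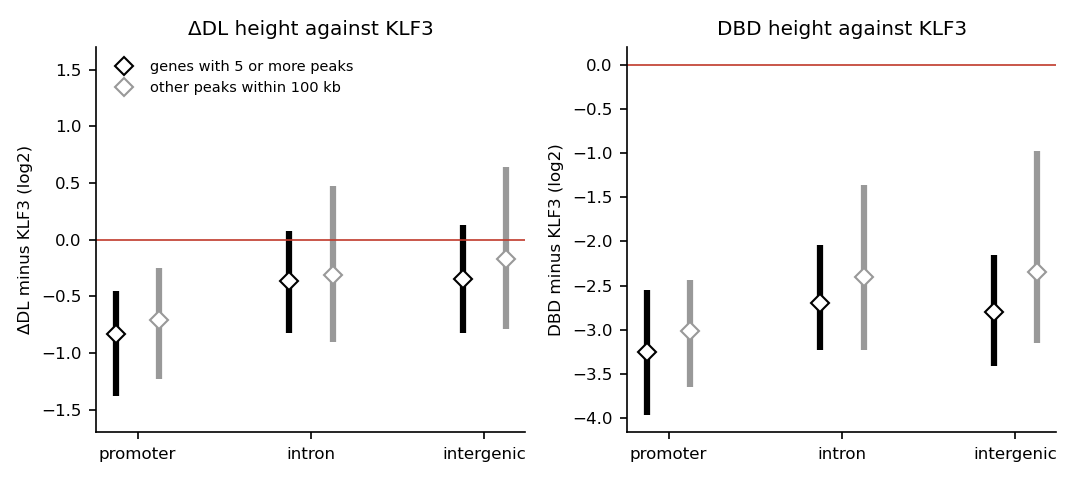
Difference in height from KLF3 on the log2 scale for ΔDL (left) and DBD (right), by region; diamonds are medians and bars run from the lower to the upper quartile over peaks, not over replicates. Promoter peaks have the lowest medians in both mutants, -0.83 and -3.25 in the clusters, and the bars of cluster and other peaks overlap in every region.

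The genes differed among themselves. Gene medians of the ΔDL minus KLF3 difference ran from -1.92 (Rasa2) to 1.66, with an SD of 0.493 over the 156 genes, whereas the pooled SD between peaks of the same gene was 0.742. The median over several peaks has a smaller spread than single peaks by construction, so these values are not compared. At 123 genes the peaks lay on both sides of the KLF3 height. At 30 genes every peak was below KLF3, and at 3 genes, among them 5430434I15Rik and Rubie, every peak was above it. At 1 gene all peaks were at least 2-fold lower. A peak at least 2-fold lower was present at 112 genes, a peak at least 2-fold higher at 26, and both kinds at 16.

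**Figure D3:**
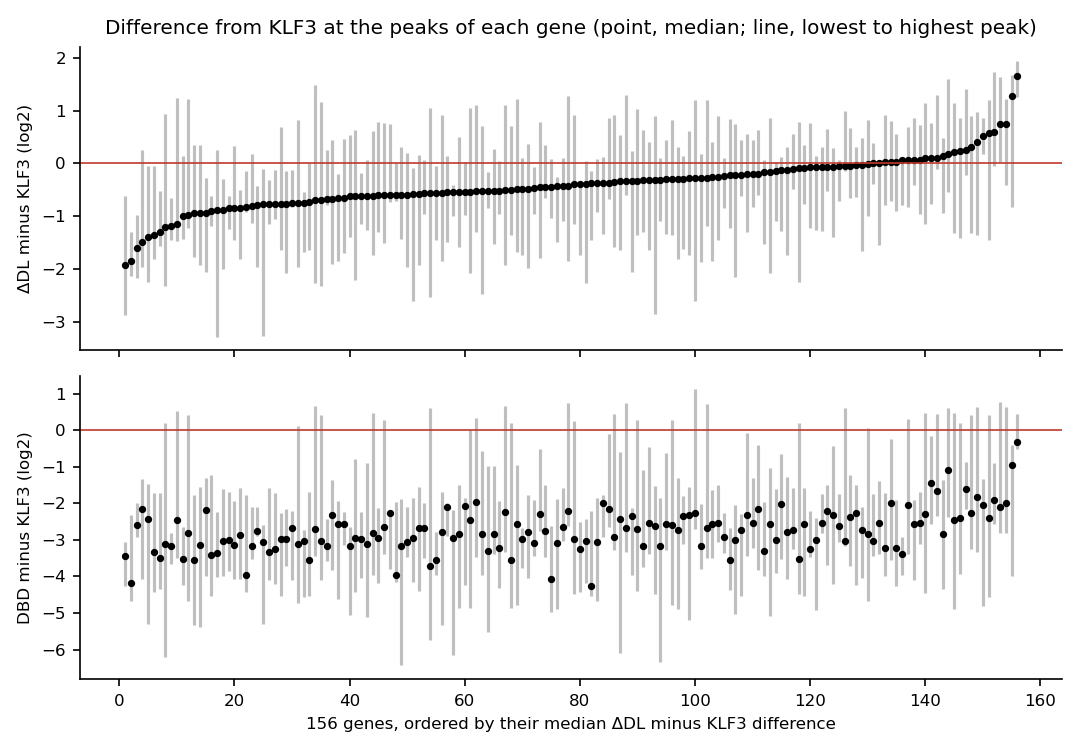
Difference in height from KLF3 on the log2 scale at each of the 156 genes, in the order of their median ΔDL difference; points are the median over the peaks of a gene and lines run from its lowest to its highest peak. ΔDL medians run from -1.92 to 1.66, and DBD medians lie below 0 at every gene.

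Smad3, Tgif1 and Smad6 of the TGF-β pathway had low ΔDL medians, whereas Smad7 did not. Smad3, the receptor-activated effector, had 7 peaks over 151 kb, and its ΔDL heights, 63.6 to 154 normalized tags, were all below its KLF3 heights, 156 to 484. The median difference was -1.60, and 6 of 7 peaks were at least 2-fold lower. It was the only gene of the 156 with no peak called in either ΔDL replicate. Tgif1, a homeodomain corepressor that binds SMADs, had 5 peaks with a median difference of -1.39, and 3 were at least 2-fold lower. Smad6, an inhibitory SMAD, lies near Smad3 on chromosome 9 and had 8 peaks with a median difference of -1.36.

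The Smad6 promoter held 3 adjacent peaks within 1 kb upstream of the TSS. Their KLF3 heights were 622, 843 and 838 normalized tags, their ΔDL heights 272, 315 and 338, and their DBD heights 35.8, 39.1 and 42.2. All 3 were more than 2-fold lower in ΔDL and were called in ΔDL replicate 2, with 21 to 24 tags, but not in replicate 1. A pair of intronic Smad6 peaks, 41228 and 41679 bp into the gene, differed from this, with ΔDL differences of -0.05 and -0.13. Smad7, the other inhibitory SMAD, had 8 peaks and no promoter peak, with a median difference of -0.34 and no peak at least 2-fold lower. An intergenic one upstream of Smad7 was higher in both mutants. KLF3 had 132 normalized tags there, ΔDL 324 and DBD 218, and the site was called in all ΔDL and DBD replicates.

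Rasa2, a GTPase-activating protein for Ras, had the lowest gene median. Its 5 peaks had KLF3 heights from 176 to 465 normalized tags and ΔDL heights from 46.5 to 189. The peak 448 bp into the gene, whose sequence is printed above, had a KLF3 height of 357 normalized tags, where ΔDL had 48.8 and DBD 18.8, a ΔDL difference of -2.87. The KLF3 calls held 13 tags (replicate 1) and 29 tags (replicate 2), and no mutant replicate called it. Gfod1 had a median difference of -1.48, with 3 of 5 peaks at least 2-fold lower. The Sertad2 cluster, 3 of whose 5 peaks were in promoters, had a median difference of -1.29.

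Other clusters had higher ΔDL medians. Lmna had a median difference of 0.02, ΔDL was below KLF3 at 4 of its 9 peaks, and no peak changed 2-fold in either direction. A Lmna peak 4152 bp from the TSS had a KLF3 height of 545 normalized tags and a ΔDL height of 1020. Its ΔDL calls held 15 tags (replicate 1) and 60 tags (replicate 2). The 3 neighbouring intergenic peaks upstream of Lmna had differences of 0.13, 0.09 and 0.59. Plec had a median difference of -0.44, near that of all cluster peaks: 7 of its 8 peaks were below KLF3 in ΔDL, 1 of them by 2-fold, and all 8 were called in ΔDL replicate 2. Tm4sf1, a membrane protein of the cell surface, had a median difference of 0.11, and Col1a2, a chain of type I collagen, one of -0.19.

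The clusters highest in ΔDL included Klf3 itself. Klf3 had 7 peaks on chromosome 5 (chr5:65194213-65258740): 1 in the promoter, 1 in intron 1, 4 in exons 3, 4, 5 and 6, and 1 intergenic. The exon peaks had KLF3 heights of 455, 292, 315 and 355 normalized tags, ΔDL heights of 1110, 929, 923 and 917, and DBD heights of 236, 199, 236 and 252. All 4 were at least 2-fold higher in ΔDL. Promoter, intron and intergenic peaks of Klf3 did not share this pattern, with ΔDL differences of -0.83, 0.37 and 0.03 and DBD heights of 72, 62.2 and 70.5. The 4 exon peaks were called in ΔDL replicate 2 and DBD replicate 1, 2 of them in ΔDL replicate 1 and none in DBD replicate 2. The retroviral constructs carry Klf3 coding sequence, so these cells held exon sequence of Klf3 outside the gene, and its part in the exon peaks was not tested.

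Peaks outside promoters, introns and intergenic sequence were few. Of 24 cluster peaks in that class, 8 were at least 2-fold higher in ΔDL (33.3%), next to 9.37% of all merged KLF3 peaks of the class and 8.1% of the others within 100 kb. All 8 were assigned to 2 genes, and 4 of them were the exon peaks of Klf3. The other 16 peaks included none, and their median difference was -0.48.

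**Figure D4:**
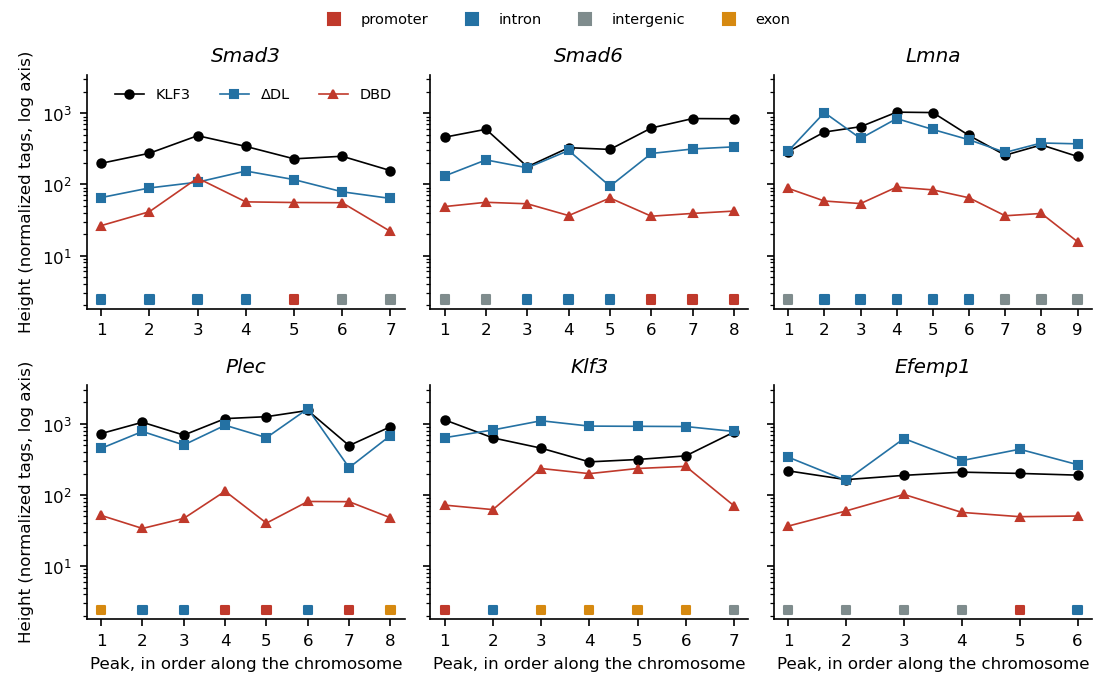
Heights of KLF3 (circles), ΔDL (squares) and DBD (triangles) in normalized tags, on a log axis, at every peak of 6 genes in order along the chromosome; squares at the foot give the region of each peak. With heights as deposited, ΔDL lies below KLF3 at all 7 Smad3 and all 8 Smad6 peaks, below it at 4 of 9 Lmna and 7 of 8 Plec peaks, and above it at the 4 exon peaks of Klf3 and at 5 of 6 Efemp1 peaks.

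Other genes with high ΔDL medians had low KLF3 heights. The non-coding genes 4930412B13Rik and 5430434I15Rik had 6 intergenic peaks each, with gene medians of 0.75 and 0.74 and median KLF3 heights of 194 and 185 normalized tags. Efemp1, which encodes the matrix protein fibulin-3, had a gene median of 0.59 with KLF3 heights from 164 to 218 and ΔDL heights from 160 to 622, and 2 of its 6 peaks were at least 2-fold higher.

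The contrast between promoter peaks and other peaks was also seen within genes. At 68 of the 94 genes with a promoter peak (72.3%), the promoter peak, or the median of several, had a lower ΔDL difference than the median of the other peaks of the gene. The log2 difference, promoter minus others, had a median of -0.56 (quartiles -1.12 and 0.04). Genes with 2 to 4 peaks gave 815 of 1171 (69.6%) and a median of -0.49. Itgb5 and Actn4, the latter encoding α-actinin-4, had promoter differences of -2.20 and -1.87 and medians over the other peaks of -0.57 and -0.11. The reverse was seen at Septin9, with -0.26 at its promoter peaks and -0.55 elsewhere, and at Ccdc80, with 0.12 and -0.56.

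DBD occupancy was low throughout the clusters. The median DBD minus KLF3 difference was -2.77 on the log2 scale, and 836 of 904 peaks (92.5%) were at least 2-fold lower, next to 79.2% of all merged KLF3 peaks and 85.1% of the others within 100 kb. With heights scaled to the same median the count was 849 (93.9%), next to 80.2%. A single cluster peak (0.111%) was at least 2-fold higher, next to 0.184% of all, and with scaled heights there was none, next to 0% of all. The median difference was -3.25 at promoter peaks, -2.69 at intronic peaks and -2.80 at intergenic peaks. Over all peaks of genes with 4 peaks it was -2.79. Every one of the 156 gene medians was below 0, from -4.25 (Fbln2, a fibulin of the extracellular matrix) to -0.33.

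The pooled SD between peaks of the same gene was 1.14 for the log2 DBD minus KLF3 difference and 0.742 for the ΔDL minus KLF3 difference. The median DBD height rested on 7.84 counted tags and the median ΔDL height on 27.7, and the part of counting error in this spread was not tested. At 35 genes at least 1 peak was above KLF3 in DBD although others were below it. The peak at least 2-fold higher was an intronic one assigned to Sgk1, a serum- and glucocorticoid-regulated kinase. KLF3 had 104 normalized tags there, ΔDL 239 and DBD 224. Runx1 held a similar site 49359 bp into the gene, with 168, 377 and 224 normalized tags, called in ΔDL replicates 1 and 2 on 11 and 29 tags and in DBD replicates 1 and 2 on 19 and 16 tags. The other 7 Runx1 peaks had DBD heights of at most 74. Tm4sf1 held one 39061 bp from its TSS, with 134, 329 and 181. These 3 sites had no CACCC-like or AP-1 word in the 200 bp around their centres.

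The genes with high median DBD heights included Klf3, with 199 normalized tags. It was followed by Tm4sf1 with 128, Asap1, an Arf GTPase-activating protein, with 106, and Fstl1 with 105. At Fstl1 all 5 peaks were intronic, with KLF3 heights of 443 to 1070 and DBD heights of 56.9 to 126, and no peak was called in a DBD replicate.

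Calls in the replicate lists of the mutants give the only values per replicate. ΔDL replicate 1 called 244 of 904 cluster peaks (27%, 95% Wilson interval 24.2 to 30), next to 35.2% of all merged KLF3 peaks. ΔDL replicate 2, which rested on 10.2 M tags against 1.77 M tags, called 661 (73.1%, 70.1 to 75.9), next to 74.6%. DBD replicate 1 called 58 (6.42%, 5 to 8.2), next to 19.6%, and DBD replicate 2 called 66 (7.3%, 5.78 to 9.18), next to 19.5%. The mean share was 50.1% ± 32.6 (SD, n = 2) for ΔDL and 6.86% ± 0.626 (SD, n = 2) for DBD. Both ΔDL lists were above both DBD lists, but the 2-sided exact permutation test over n = 2 lists each gave p = 0.333, the smallest value that 2 against 2 allows.

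**Figure D5:**
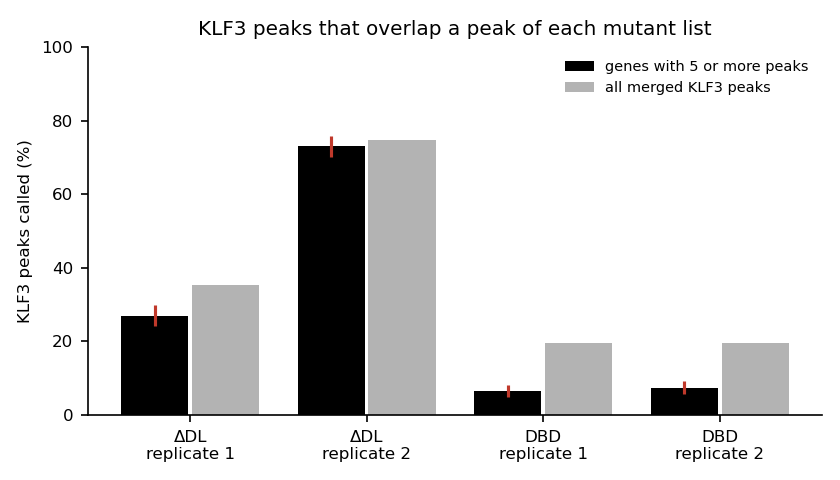
Percentage of KLF3 peaks that overlap a peak of each mutant replicate list, for the 904 cluster peaks (black; red lines are 95% Wilson intervals, which cover counting error only) and for all 14115 merged KLF3 peaks (grey). Cluster peaks are called in 6.42 and 7.3% of cases in the DBD lists, next to 19.6 and 19.5% of all, and in 73.1% in ΔDL replicate 2, next to 74.6%.

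By region, DBD replicates 1 and 2 called 4.14 and 6.35% of intergenic cluster peaks, where 31.8 and 31.3% of all intergenic KLF3 peaks were called. At promoters they called 2.63% each, where 2.16 and 3.45% of all promoter peaks were called. The whole list contains peaks farther than 100 kb from a TSS and peaks of lower KLF3 height. In the lowest bin of KLF3 height, intronic and intergenic cluster peaks were called in at least 1 DBD replicate in 31.2% of cases and the others within 100 kb in 61.8%. The highest bin gave 6.67 and 8.97%.

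Both DBD replicates called 40 of 904 cluster peaks (4.42%), next to 17% of all merged KLF3 peaks. Their median KLF3 height was 164 normalized tags, their ΔDL height 316 and their DBD height 211, whereas the 820 peaks called in neither had medians of 299, 217 and 44.9. In the merged mutant lists, the same rule of 5 peaks within 100 kb found 24 genes for ΔDL among 12248 peaks and none for DBD among 4955 peaks. A merged list holds only peaks called in both replicates, and ΔDL replicate 1 rested on 1.77 M tags, which limits the ΔDL count. Of the ΔDL genes, 12 were also KLF3 cluster genes, which is 50% of the ΔDL genes and 7.69% of the KLF3 genes. Of all genes with a KLF3 peak within 100 kb, 1.97% were KLF3 cluster genes. That base is unlike the ΔDL genes, since 69.1% of its genes had only 1 KLF3 peak. The part of the room around a gene in this overlap was not tested. The 12 shared genes included Klf3, Lmna, Smad7, 4930412B13Rik and 5430434I15Rik. Klf3 was a KLF3 cluster gene only through its 4 exon peaks.

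CACCC-like words were common under the clusters. At least 1 lay in the 200 bp around the centre at 637 of 904 cluster peaks (70.5%), next to 68.8% of all merged KLF3 peaks. At genes with 4 peaks the share was 74.3%. In flanks of the cluster peaks, from 400 to 600 bp away on 1 side, the share was 34.1%. By region it was 93.9% at promoter, 67.8% at intronic and 67.7% at intergenic cluster peaks, where all merged KLF3 peaks of the same regions gave 94.4, 62.7 and 51%. Other intergenic peaks within 100 kb gave 60.1%, and intergenic peaks of genes with 4 peaks gave 69.7%. An AP-1 word was found at 229 cluster peaks (25.3%), next to 17% of all, and at 4.87% of their flanks. At genes with 4 peaks the AP-1 share was 27.6%, so it was not particular to the clusters. At intronic and intergenic cluster peaks the AP-1 share was 29.2 and 27.1%, where the other peaks within 100 kb gave 23.2 and 25.4%. Those of genes with 4 peaks gave 25.9 and 36.5%. These matches describe the sequence and do not identify a bound site.

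Sequence differed between peaks lost and gained. Of the 200 cluster peaks at least 2-fold lower in ΔDL, 80% held a CACCC-like word and 28.5% an AP-1 word, and their median G+C content was 56.6%. Of the 35 at least 2-fold higher, 20% and 2.86% did, at a G+C content of 41.4%. These sets differed in other ways too. Promoters held 49 of the lower and 2 of the higher peaks, and median KLF3 heights were 308 and 187 normalized tags. Without Klf3 and 1 other gene, 26 higher peaks remained. Among intergenic peaks alone, 74.2% of 66 lower and 23.1% of 13 higher ones held a CACCC-like word. The part of gene, region and height in the difference was not tested. Of the 40 peaks called in both DBD replicates, 8 (20%) held a CACCC-like word. Their flanks gave 32.5%, a difference of few peaks. Of those called in neither replicate, 72.9% held one. Promoter cluster peaks had a median G+C content of 65.2% and a median PhastCons conservation score of 0.33, against 63.8% and 0.22 at other promoter peaks. Promoter peaks of genes with 4 peaks had 67.2% and 0.295. Intergenic cluster peaks had a conservation score of 0.14, against 0.08 at the other intergenic peaks within 100 kb and 0.12 at those of genes with 4 peaks.

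Clusters were counted in lists of genes of fibroblast biology, chosen with earlier results of these data known. Of all genes with a KLF3 peak within 100 kb, 1.97% had a cluster. In a list of actin cytoskeleton and focal adhesion genes, which also holds the nuclear lamin gene Lmna, 6 of 33 with a peak had one (18.2%). Among them were Lmna, Lpp, Actn4, Msn and Vcl. The shares of this and the other lists were not matched for the room around a gene. Lpp, an adhesion protein, had 7 peaks over 438 kb with a median ΔDL difference of -0.29. Actn4 and Msn, which encodes moesin, had 6 peaks with medians of -0.27 and -0.55, and Vcl, which encodes vinculin, had 5 with a median of -0.80.

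Among extracellular matrix and integrin genes 4 of 31 had a cluster (12.9%): Itgb5, Col1a2, Thbs2 and Timp3. Thbs2, a matricellular thrombospondin, had a median ΔDL difference of -1.19 and Timp3 one of -0.05. TGF-β pathway genes gave 4 of 19 (21.1%), Smad6, Smad7, Smad3 and Tgif1. The AP-1 factors gave 1 of 10, Fos, with 5 peaks, a median ΔDL difference of -0.55 and DBD heights of 18.5 to 34.1 normalized tags. KLF and SP factors gave 1 of 16, Klf3 itself, which reached 5 peaks only with its 4 exon peaks. RUNX and core binding factor genes gave 1 of 6, Runx1. Mesenchymal transcription factors gave 2 of 22, Nfix and Foxp1, with medians of -0.85 and -0.61. No cluster was found among the 17 TEAD and Hippo pathway genes, the 23 growth factor signalling genes, the 8 genes of CtBP and its complex or the 6 markers of other cell types that had a peak. At the share of 1.97% over all genes with a peak, lists of this size would often hold none.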

How the data were processed

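Peak lists of V5 ChIP-seq in Klf3-/- MEFs expressing KLF3, ΔDL or DBD were used: 6 replicate lists, the merged KLF3, ΔDL and DBD lists and the table of all peaks, with 22188 rows. The authors aligned reads to mm9 with Bowtie2 2.0.0 and called and annotated peaks with HOMER 4.1, per the labels; a merged list holds the peaks found in both replicates. The deposited peak scores are a signal, tags per peak normalized to the same total by the authors, and the heights are log2 values of normalized tags, counted by the authors in both replicates combined. The deposited G+C content is a fraction, and the deposited conservation value is a mean PhastCons score.

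Members were taken by the rule given above. Each of the 904 member peaks overlapped a row of the all-peak table, by at least 302 bp, and took its heights; 727 had the same interval. Heights of the same interval differed between tables by up to 0.08. Tags per replicate were obtained from the score of 1 tag in each list. Gene names in date form (40 peaks) were restored through their RefSeq entries. The mm9 genome gave the deposited G+C content at 14113 of 14115 peaks, and words were counted on both strands. Members, gene lists and comparisons were chosen with earlier results of these data known. No test was made on heights. Called shares of the ΔDL and DBD lists were compared by an exact permutation test over 2 biological replicates of 1 clone each. With 2 lists against 2, the p-value of this test cannot fall below 0.333 and does not measure the spread between replicates. The lists also differ in depth, and construct cannot be told apart from clone.

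Named genes are the 12 with the most peaks, with ties broken by summed KLF3 height, the 5 lowest and 5 highest in median ΔDL difference, the 5 highest in median DBD height, the 3 with the most promoter peaks and the members of the gene lists. Other genes (Chd9, Agfg1, Hspg2, Ptgs2, Irf2bp2, Cdk6, Rubie, Fbln2, Sgk1) were named after their values were seen. Some genes that this rule takes are not reported here. The code was tested on simulated data. Tools were scipy 1.17.1, pandas 2.3.3, numpy 2.4.6, pysam 0.24.0 and matplotlib 3.10.9 under Python 3.11.15. Input libraries entered only through the peak calls of the authors.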

Additional observations from a re-analysis of the deposited data

How the results depend on the processing

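Of 134 values recomputed under 16 alternatives, 97 stayed within 1.5 times a main count, within its 95% interval or within 1 SD, and 37 moved. A reversal of sign could be recorded only for the median differences, and neither reversed. The tally is no measure of robustness, since some values could not move. Every cluster peak already overlapped its row by at least 302 bp, so a limit of 200 bp removed none. A constant shift keeps the order of peaks within a gene. Leaving out 1 of 2 replicates always stays within 1 SD of their mean. With a limit of 50 kb there were 87 genes with 493 peaks, of which 35.9% were intergenic, 102 lower and 22 higher in ΔDL by 2-fold and 458 lower in DBD, and 73.4% held a CACCC-like word. With 6 or more peaks per gene there were 67 genes with 459 peaks, of which 98 were lower and 18 higher in ΔDL and 427 lower in DBD. With KLF3 peaks of at least the median score there were 38 genes with 221 peaks: 43 were lower and 11 higher in ΔDL, 209 were lower and 0 higher in DBD, the median DBD difference was -3.09, ΔDL replicates 1 and 2 called 38 and 87.3%, and 76.5 and 20.8% held a CACCC-like and an AP-1 word. With heights scaled to the same median, the ΔDL and DBD medians were -1.48 and -3.19, 671 peaks were lower and 0 higher in ΔDL, and 0 were higher in DBD. With a 3-fold difference, 75 were lower and 7 higher in ΔDL and 0 higher in DBD. In 100 bp windows, 58.5% held a CACCC-like and 16.4% an AP-1 word. Taking the peaks of 1 KLF3 replicate list in place of the merged list gave 564 genes with 3463 peaks without KLF3 replicate 1 and 637 genes with 4011 peaks without KLF3 replicate 2, since the merged list holds only peaks found in both. Leaving out a mutant replicate gave called shares between 27 and 73.1% for ΔDL and between 6.42 and 7.3% for DBD, as values with no test. An alternative that left out Klf3 and 1 other gene was chosen after seeing the data. An overlap of 200 bp with a replicate-list peak could not give a value, since those peaks are at most 133 bp wide. No paired analysis was possible because the heights combine both replicates and come from no test. Depth limits the DBD heights most, with a median of 7.84 tags per cluster peak.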
